A study of Mus musculus with 158 samples.

Results

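Eif5b and Bzw2 were followed through a pooled knockdown screen by the abundance of the 7 short hairpin RNAs (shRNAs) that targeted them, of 1000 targeting hairpins against 285 genes in all. Each hairpin is meant to direct the degradation of 1 messenger RNA. Its abundance in genomic DNA counts the descendants of the cells that took it up. Every row of the deposited tables whose target was Eif5b or Bzw2 was taken, each in the libraries of its own pool. The pair was chosen by the changes of the Eif5b hairpins from day 0, all of which fell in earlier results of these data. The Eif5b changes from day 0 are therefore given as a description. No p-value is printed for them, and the number that passed the call threshold stands only beside that of all hairpins.

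The cells were PDA530 Met, a mouse line of pancreatic adenocarcinoma from a liver metastasis. In every group, cells infected with 1 virus pool at a multiplicity of 0.3 had been selected for 4 days in puromycin at 3 µg/ml. The 3 groups were cell pellets of day 0, cells kept in culture for 28 days, and lung tumours harvested 28 days after tail-vein injection into mice, 3 mice per pool, with all tumours of a mouse combined. The labels give neither the strain nor the age of the mice, nor whether replicate libraries of day 0 came from separate infections. Where they did not, p-values measure only the spread between these samples, which may be technical.

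Translation starts when the small ribosomal subunit, carrying the initiator tRNA and a set of initiation factors, has found a start codon. Eif5b encodes a GTPase that then promotes the joining of the large subunit, the last step before elongation, and it is required by most messenger RNAs. Bzw2 encodes an eIF5-mimic protein, which resembles part of the initiation factor eIF5, binds some of the same partners and can make start codon selection stricter. Knockdown of the 2 genes thus touches a core factor and a regulator of the same process.

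The 3 Eif5b hairpins, TRCN0000179179, TRCN0000181192 and TRCN0000183617, name the transcript NM_198303 and lay together in pool 9, among 52 targeting hairpins. Of the 4 Bzw2 hairpins, which name NM_025840, TRCN0000096854 and TRCN0000096855 lay in pool 11, also with 52, and TRCN0000430118 and TRCN0000437591 in pool 18, with 53. The Bzw2 hairpins were thus measured in 2 separate sets of cells, and hairpins of 1 pool shared every library. No file used here gives the sequences of the hairpins, and none is shown. How far each hairpin lowered its target, or other messenger RNAs, was not analysed here.

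Abundance is given as CPM, the reads of a hairpin per 1000000 reads of its pool's targeting hairpins in the same library. An equal share would be 19231 CPM in pools 9 and 11. Pool 9 libraries held 3434769 to 6935870 targeting reads each, pool 11 libraries 2040586 to 4209809 and pool 18 libraries 3593668 to 6924840. Pool 9 had 3 day 0 libraries and 2 lung libraries, 9A and 9C. Its 6 culture libraries came from cells labelled for pools 8 and 9 (8/9A to 8/9C) and for pools 9 and 10 (9/10A to 9/10C). The labels speak of triplicate cultures, so whether these were 6 separate cultures is not stated. Pools 11 and 18 had 3 libraries in each group, with culture measured in libraries labelled for pools 10 and 11 and for pools 18 and 19. Fold changes are differences of log2(CPM + 1) after scaling by trimmed mean of M values (TMM), which assumes that most hairpins of a pool did not change. A hairpin is called where the limma Benjamini-Hochberg adjusted p over all hairpins is below 0.05.

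All 3 Eif5b hairpins stood below their day 0 levels in each of the 6 culture libraries and in both lung libraries. Their median log2 fold change from day 0 was -4.41 in culture and -6.15 in lungs, while the median of all hairpins tested was -0.10 and -0.13. Among 242 genes with at least 3 hairpins measured in both comparisons, Eif5b had the lowest median in culture and rank 2 from the lowest in lungs. The culture median was -1.87 with only the cultures labelled 8/9 and -5.34 with only those labelled 9/10, and -2.58 with edgeR. The lung median was -9.65 without lung library 9A and -4.40 without 9C. All hairpins lay below day 0 in both comparisons for 19 of these 242 genes (7.85%). These are the values that chose the gene. For Bzw2 the medians were -0.15 and 0.11, at rank 120 and 151 of 242, and its 4 hairpins did not move in 1 direction.

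Eif5b hairpin TRCN0000181192 was the most abundant of the 3 at the start, with 8397, 8175 and 8178 CPM in the day 0 libraries. In culture it was at 183, 241 and 445 CPM in 8/9A to 8/9C and at 43.9, 139 and 301 CPM in 9/10A to 9/10C. Lung library 9A held 166 CPM and lung library 9C held 0 reads, which allows up to 0.67 CPM (3 reads). The highest culture library was thus 18.5-fold below the day 0 mean, and 9C at least 12300-fold below it. Of all 52 hairpins of the pool this one had the lowest fold change from day 0, -4.92 (SE 0.59) in culture and -8.85 (SE 2.44) in lungs. The lung value joins 9A with a library at 0 reads and depends on the pseudocount, with -5.24 at a pseudocount of 100 CPM. From 9A alone the fold change was -5.14.

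The second Eif5b hairpin, TRCN0000179179, began at 1505, 1500.0 and 1535 CPM, at rank 50 or 51 of 52 by abundance. It was the hairpin that differed most between the 2 sets of cultures. Libraries 8/9A to 8/9C held 228, 595 and 273 CPM, and libraries 9/10A to 9/10C held 3.07, 29.1 and 1.98 CPM, the last from 8 reads. The 2 sets did not overlap, and both lay below day 0. Lung library 9A held 162 CPM, 9.32-fold below the day 0 mean. Lung library 9C held 1 read, 0.22 CPM (exact binomial 95% interval 0.01 to 1.24, counting error only). The fold change from day 0 was -4.41 (SE 1.58) in culture and -6.15 (SE 2.26) in lungs. These values rest in part on libraries with 1 to 12 reads and depend on the method. At a pseudocount of 100 CPM they were -2.48 and -2.90, with edgeR -2.58 and -3.68, and with DESeq2 -2.51 and -3.77. With only the cultures labelled 9/10 it was -7.07, and with only those labelled 8/9 it was -1.87. From lung library 9A alone it was -2.73.

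Reads of TRCN0000179179 also occurred in day 0 libraries of pool 8, which shared their sequencing lane with cultures 8/9 per the names of the deposited files. It had 557 reads in day 0 8A and 1030 in its technical repeat, 940 in 8B and 425 in 8C. Scaled to 1000000 reads of the library, these are 52.9 to 119 reads. The cultures labelled 8/9 held 95.5, 251 and 132 reads of it on the same scale, and the cultures labelled 9/10 held 1.05 to 15.4. The other 2 Eif5b hairpins had at most 53 reads in any day 0 library of pool 8, and all pool 9 hairpins together made up 0.025% to 0.035% of those libraries. The part of these reads in the values of cultures 8/9 was not tested. Mixture, lane and culture set cannot be told apart here.

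The third Eif5b hairpin, TRCN0000183617, had the smallest difference from day 0 in culture. Its day 0 values were 4056, 4129 and 4026 CPM. Cultures 8/9A to 8/9C held 2354, 3506 and 800.5 CPM and cultures 9/10A to 9/10C held 205, 620 and 1003 CPM. All 6 lay below day 0, the highest by 1.16-fold and the lowest by 19.9-fold. In lungs the hairpin was at 137 CPM in 9A and 11.6 CPM in 9C, below every culture, and 29.8-fold and 351-fold below the day 0 mean. Its fold change from day 0 was -1.49 (SE 0.66) in culture, at rank 11 from the lowest of 52, and -5.66 (SE 1.10) in lungs, at rank 4. The culture value was -0.81 with only the cultures labelled 8/9, -2.29 with only those labelled 9/10, -1.04 with edgeR, -0.97 with DESeq2 and -2.40 with the control total.

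In lung library 9A the 3 Eif5b hairpins were at nearly 1 level, 162, 166 and 137 CPM, although their day 0 means were 1513 ± 19.0, 8250 ± 127 and 4070 ± 52.9 CPM (SD, n = 3 each). Of the other 49 hairpins of the pool, 2 were at or below the highest of them in that library. In 9C the Eif5b hairpins held 1, 0 and 52 reads, and 3 of the other 49 were at or below 11.6 CPM, none of them at 0 reads. Each Eif5b hairpin was thus lower in 9C than in 9A, and its rank by abundance was between 47 and 52 of 52 in both.

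The proportions among the 3 hairpins changed with them. The log2 ratio of TRCN0000181192 to TRCN0000183617 was 1.05, 0.99 and 1.02 in the day 0 libraries and between -3.86 and -0.85 in the cultures. In lung library 9A it was 0.28. The log2 ratio of TRCN0000179179 to TRCN0000181192 was -2.48 to -2.41 at day 0. It was 0.32, 1.30 and -0.71 in cultures 8/9A to 8/9C and -3.84, -2.25 and -7.25 in cultures 9/10A to 9/10C. Ratios within a library do not depend on the scaling. The day 0 libraries thus held nearly constant proportions, and the cultures did not. A technical repeat of culture 8/9A held 242, 139 and 2628 CPM of TRCN0000179179, TRCN0000181192 and TRCN0000183617, against 214, 224 and 2093 CPM in the first run.

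Against day 0, 2 of 3 Eif5b hairpins passed the call threshold in culture, TRCN0000179179 and TRCN0000181192, where 31.9% of all 945 hairpins tested were called lower. TRCN0000179179 no longer passed with edgeR, DESeq2, the replicate letter as a block or all 3 groups in 1 fit. The same held without culture replicate A and without day 0 replicate A, B or C. In lungs 1 of 3 passed, TRCN0000183617, where 19.1% of all 891 hairpins tested were called lower. It no longer passed with the replicate letter as a block and without day 0 replicate A, B or C. TRCN0000181192 did pass in lungs under 7 of 15 other settings. The 2 contrasts with day 0 are those that chose the gene, and nothing is read from the counts. Every Eif5b hairpin lay wholly below day 0 in both, as did 50.6% of all hairpins in culture and 45.8% in lungs. Among the other 49 hairpins of pool 9, 22 lay wholly below day 0 in culture and 24 in lungs.

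Lung tumours and cultures of the same age were then compared directly. Passage through tail-vein injection and growth in the lung cannot be told apart in this comparison. On simulated data more of the calls in comparisons with lungs were false than the threshold intends. The day 0 libraries do not enter this comparison, but the lung and culture values were also part of the choice of Eif5b. Its test here is thus not independent of that choice, and its p-values and calls are given only as a description. For Eif5b, 1 of 3 hairpins was called, lower in lungs, where 13.3% of all 889 hairpins tested were called lower. TRCN0000183617 fell from 1415 ± 1257 CPM in culture (SD, n = 6 libraries) to 74.2 ± 88.5 CPM in lungs (SD, n = 2), without overlap, where 22.9% of all hairpins lay wholly below culture. Its fold change was -4.43 on the log2 scale (limma adjusted p = 0.0222 by Benjamini-Hochberg, SE 1.22). The fit took the 6 culture libraries as independent, with no term for their 2 sets. The call was lost when lung replicate C or any of culture replicates A, B and C was left out, with values from -4.67 to -2.96, with either set of cultures alone and with the replicate letter as a block (-4.05, limma adjusted p = 0.138). With the cultures labelled 9/10 the fold change was -3.62 (limma adjusted p = 0.195), and with those labelled 8/9, an alternative chosen after the data were seen, it was -5.16 (limma adjusted p = 0.0734).

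The other 2 Eif5b hairpins were not called between lungs and culture. For TRCN0000181192 the value was -3.96 (SE 1.73, limma adjusted p = 0.125, 95% interval -7.79 to -0.12 before adjustment), and 9A lay inside the range of the cultures. The value depends on the pseudocount, since 9C held 0 reads: it was -2.34 at a pseudocount of 10 CPM, -0.94 at 100 CPM, -1.70 with edgeR and -1.52 with DESeq2. With 9A as the only lung library it was -0.27. With 9C alone, at 0 reads, it was -7.44, a value that the pseudocount sets. TRCN0000179179 had -1.86 (SE 2.44, limma adjusted p = 0.595, 95% interval -7.28 to 3.56), and -0.48 at a pseudocount of 100 CPM. It was -4.43 with the cultures labelled 8/9 alone and -5.14 without lung replicate A, and turned to 0.81 with the cultures labelled 9/10 alone and to 1.62 without lung replicate C. The intervals of both are wide enough to hold a large fall, and that of TRCN0000179179 also holds a large rise.

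Bzw2 showed a change in culture that its hairpins did not share. TRCN0000096854 was at 20079, 22191 and 20814 CPM at day 0, close to an equal share of its pool. In culture it was at 4636, 3363 and 3896 CPM, wholly below day 0. In lungs it was at 12521, 30114 and 19263 CPM, so that the day 0 values lay inside the range of the lung values. In culture it fell by 1.83 on the log2 scale (limma adjusted p = 8.11e-23 by Benjamini-Hochberg, SE 0.16), or 3.56-fold, at rank 4 from the lowest of 52. In pool 11 limma's prior degrees of freedom for this comparison were unbounded, so that the p-value rests on the fitted trend more than on 3 libraries per group. The edgeR and DESeq2 values were -1.83 and -1.69, both called. By scaling it was -2.42 for pool totals, -2.53 for the control total, -2.49 for the deposited values and -1.70 for DESeq2 size factors. In lungs the change from day 0 was 0.05 (SE 0.29, limma adjusted p = 0.916, 95% interval -0.66 to 0.76).

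Between lungs and culture, TRCN0000096854 was higher in lungs by 1.96 (limma adjusted p = 0.00463 by Benjamini-Hochberg, SE 0.42), rank 2 from the highest in its pool. All 3 lung values lay above all 3 culture values, as for 18.1% of all hairpins. It was the 1 Bzw2 hairpin called higher of 4, where 11.6% of all hairpins were called higher. With the control total the value was 2.85, and with the deposited values 2.62. Leaving out culture replicate B ended the call (1.87, limma adjusted p = 0.0502). The Bzw2 tests were made with earlier results of these data known.

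The second Bzw2 hairpin of pool 11, TRCN0000096855, did not follow it. Its CPM overlapped between groups, with 16177, 16619 and 18330 at day 0, 19614, 18348 and 12885 in culture and 33416, 19440 and 13019 in lungs. With TMM scaling it was called higher in culture, by 0.56 (SE 0.14, limma Benjamini-Hochberg adjusted p = 0.000504). With all 3 groups in 1 fit, also with TMM scaling, the value was 0.26 and not called (limma adjusted p = 0.594). Its direction depended on the scaling, with -0.03 for pool totals, -0.14 for the control total and -0.10 for the deposited values, none of them called. In lungs it had 0.43 against day 0 (limma adjusted p = 0.442, 95% interval -0.54 to 1.39) and -0.05 against culture (limma adjusted p = 0.942, 95% interval -0.94 to 0.83).

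The ratio of both hairpins within a library needs no scaling. The log2 ratio of TRCN0000096854 to TRCN0000096855 was 0.31, 0.42 and 0.18 at day 0 and -2.08, -2.45 and -1.73 in culture. In lungs it was -1.42 in 11A, 0.63 in 11B and 0.57 in 11C. The difference was -2.39 between culture and day 0 and 2.01 between lungs and culture, each without overlap (exact permutation test, two-sided p = 0.1, the smallest that 3 against 3 can give, Benjamini-Hochberg adjusted p = 0.2 over 6 comparisons). Lungs differed from day 0 by -0.38 (exact permutation p = 1.0). Lung library 11A lay between the cultures and the other 2 lung libraries.

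The Bzw2 hairpins of pool 18 were not called in any comparison. TRCN0000430118, an abundant hairpin, held 29643, 27791 and 30992 CPM at day 0, 25883, 30970.3 and 29800 in culture and 27501, 33579 and 22194 in lungs. All 3 groups overlapped. Its fold changes from day 0 were 0.25 in culture (limma Benjamini-Hochberg adjusted p = 0.0916, 95% interval -0.02 to 0.52) and 0.17 in lungs (limma adjusted p = 0.577, 95% interval -0.34 to 0.68). Between lungs and culture it had 0.00 (95% interval -0.57 to 0.58). With pool totals all 3 values were just below 0.

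TRCN0000437591 was rare from the start, at rank 51 of 53, with 172, 314 and 351 CPM at day 0. Cultures held 137, 166 and 142 CPM, just below day 0, and lungs held 185, 142 and 105 CPM. The fold changes were -0.56 in culture (limma Benjamini-Hochberg adjusted p = 0.324, 95% interval -1.66 to 0.53) and -0.65 in lungs (limma adjusted p = 0.44, 95% interval -2.06 to 0.76). Lungs and culture differed by 0.00 (95% interval -1.71 to 1.71). The log2 ratio of TRCN0000430118 to TRCN0000437591 within a library averaged 6.79 at day 0, 7.61 in culture and 7.61 in lungs. Culture exceeded day 0 by 0.82 without overlap (exact permutation p = 0.1, Benjamini-Hochberg adjusted p = 0.2), lungs exceeded day 0 by 0.83 (exact permutation p = 0.2, adjusted p = 0.3), and lungs and culture differed by 0.01 (exact permutation p = 0.9, adjusted p = 1.0). A 2-fold change of TRCN0000437591 in either direction between lungs and culture would lie within its interval.

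Against day 0, 2 of 4 Bzw2 hairpins were called in culture, 1 higher and 1 lower, where 60.6% of all 945 hairpins were called, 28.8% higher and 31.9% lower. limma called 0 of 4 in lungs, where 33.8% of all 891 were called, 14.7% higher and 19.1% lower. The count at an unadjusted p under 0.05 was also 0 of 4 there, and edgeR and DESeq2 called 0. In lungs no Bzw2 hairpin lay wholly above day 0, where 14.1% of all hairpins did, or wholly below it, where 45.8% did. In culture none lay wholly above day 0, where 18.8% of all hairpins did, and TRCN0000096854 and TRCN0000437591 lay wholly below it, where 50.6% did.

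Hairpins of other genes most like each member were sought by the Pearson r of log2(CPM + 1) over the libraries of the pool, as a description. Over 11 libraries of pool 9, TRCN0000179179 and TRCN0000181192 were most like the same hairpin, TRCN0000067114 against Cxcl3, a chemokine, with r of 0.885 and 0.971. TRCN0000183617 was most like TRCN0000123640 against Eftud2, which encodes a GTPase of the spliceosome, with r of 0.945. The 3 Eif5b hairpins had r of 0.781 to 0.88 among themselves, below each of these. Since each of these is the highest of 49 candidates, nothing is read from that order. The points share libraries and the step from day 0 to day 28. Over 9 libraries of pool 11, TRCN0000096854 was most like TRCN0000081762 against Nfkbiz, a nuclear regulator of NF-kappaB, with r of 0.956, whereas its r with the other Bzw2 hairpin was 0.062. TRCN0000096855 was most like TRCN0000090126 against Dctn4, a dynactin subunit, at 0.624. In pool 18, TRCN0000430118 was most like a hairpin against Sesn2, a stress-induced regulator of mTOR signalling, at 0.791. TRCN0000437591 was most like one against Coro1c, an actin-binding protein, at 0.778.

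Other genes of protein synthesis in the library were Mrps7, a protein of the mitochondrial ribosome, Pak1ip1, Utp20, Wdr12 and Znrd1, which act in ribosome production, and Alkbh8, Elac1 and Trit1, which process or modify tRNA. Of their 25 hairpins, 22 were tested. In culture 3 were called higher than day 0 and 4 lower, where 28.8% and 31.9% of all hairpins were. In lungs 3 were called higher and 2 lower than day 0, where 14.7% and 19.1% of all hairpins were. Between lungs and culture 3 were called higher and 1 lower, where 11.6% and 13.3% of all hairpins were. Their medians were 0.00, 0.13 and 0.14, beside -0.10, -0.13 and -0.11 for all hairpins tested. The lowest median of a gene of the list was -1.45 for Pak1ip1 in culture, -2.13 for Utp20 in lungs and -1.52 for Znrd1 between lungs and culture.

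Single hairpins of the list went different ways. TRCN0000009759 against Pak1ip1 had -2.60 in culture against day 0 (SE 0.39, limma adjusted p = 1.3e-05) but 1.22 in lungs against day 0 (SE 0.34, limma adjusted p = 0.0213), a difference of 3.97 between lungs and culture (SE 0.49, limma adjusted p = 0.000179). TRCN0000375310 against Trit1 fell by 2.27 in lungs against day 0 (SE 0.21, limma adjusted p = 0.000437), with -1.96 against culture (SE 0.28, limma adjusted p = 0.00146). TRCN0000084728 against Znrd1 rose by 1.52 in culture (SE 0.16, limma adjusted p = 1.29e-15), in pool 11, where the prior was unbounded. The pattern of Bzw2 hairpin TRCN0000096854, lower in culture and higher in lungs than in culture, was also that of TRCN0000009759. Of the 3 Pak1ip1 hairpins, 2 were called lower in culture than at day 0, where 31.9% of all hairpins were, and 2 higher in lungs than in culture, where 11.6% of all hairpins were.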

How the data were processed

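The deposited value of each hairpin is a signal that the authors normalised from reads. Reads were aligned with BWA 0.5.9 per the submitters' processing notes; how the authors counted and scaled them is not given in the sources used here. In each of the 148 of 158 samples with values, every signal was divided by the smallest, taken as 1 read. All 27241 values came out whole within 0.01 reads (100.0%), and a hairpin without a row was taken as 0 reads. Technical repeats were summed. PCR reads carry no molecular identifiers, so counting intervals cover counting error only.

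Reads were turned into CPM of the pool's targeting reads. Fold changes used the TMM factors of edgeR 4.0.16, a pseudocount of 1 CPM, which understates changes of rare hairpins, and limma 3.58.1 (R 4.3.3) with a variance trend and robust estimation. Each pool was fitted on its own with only the 2 groups compared, over hairpins with a mean of at least 10 reads, and Benjamini-Hochberg adjustment ran over all pools. All 7 members passed this filter. Because the deposited unit is a signal and not counts, the count tests of edgeR and DESeq2 1.42.0 on recovered reads were alternatives; edgeR called 279, 553 and 222 hairpins for lungs against day 0, culture against day 0 and lungs against culture, DESeq2 400, 595 and 295, and limma 301, 573 and 221. Exact permutation tests used SciPy 1.17.1. The steps were tested on simulated data, where in both comparisons with lungs more of the calls were false than the threshold intends.

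Members, lists and tests were chosen with earlier results of these data known. Named are all Eif5b and Bzw2 hairpins, the genes of a translation list that the library targets, at most 6 hairpins of that list with the lowest limma p per comparison and direction, and the most alike hairpin of another gene for each member.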

Additional observations from a re-analysis of the deposited data

Results flagged for a closer look

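Of the 7 hairpins, 2 differed between lungs and culture in the limma test, where 24.9% of all 889 hairpins tested did. The difference was -4.43 for TRCN0000183617 against Eif5b and 1.96 for TRCN0000096854 against Bzw2, on the log2 scale. The lung and culture values were part of the choice of Eif5b, so its value is not independent of that choice. The Eif5b call was lost with the cultures labelled 9/10 alone (limma adjusted p = 0.195) and with those labelled 8/9 alone (limma adjusted p = 0.0734).

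Reads of 6 of the 7 hairpins were present in libraries of pools to which they did not belong, above the 3 reads that a count of 0 allows. The highest were 1587 reads of TRCN0000179179 (Eif5b) in day 0 library 8A with its technical repeat, and 4695 reads of TRCN0000430118 (Bzw2) in lung library 16D. The other 2 Eif5b hairpins reached 53 and 50 reads, TRCN0000181192 and TRCN0000183617, both in day 0 library 8C. Bzw2 hairpins TRCN0000096854 and TRCN0000096855 reached 33 reads in day 0 17C and 35 reads in day 0 12C. TRCN0000179179 had no reads in lung libraries 8A and 8C and 139 reads in lung library 8B. Their part in the values of the hairpins' own pools was not tested.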

How the results depend on the processing

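Over 546 values of single hairpins under alternative settings, 520 kept their direction and 26 reversed. The counts of calls over the 7 hairpins include the Eif5b contrasts with day 0 that chose the gene, and nothing is read from those. Lungs against day 0 moved from 1 to 2 with pool totals, DESeq2 size factors, DESeq2, a pseudocount of 10, 1 fit over all 3 groups and the removal of lung libraries 10C and 16D, and to 3 with a pseudocount of 100, and ranged from 0 to 3 over left-out replicates. Culture against day 0 moved from 4 to 2 with all 3 groups in 1 fit, where the count over all hairpins moved from 573 to 364. It moved to 3 with edgeR, DESeq2 and the replicate block and to 5 with the cultures from the lane of day 0. Over left-out replicates it ranged from 3 to 5. Lungs against culture moved from 2 to 1 with the cultures from the lane of day 0 and, chosen after seeing the data, with the cultures labelled 8/9, and ranged from 0 to 3 over left-out replicates. Over all hairpins, left-out replicates gave 148 to 388 calls for lungs against day 0 and 142 to 249 for lungs against culture.

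Replicate letters are shared between groups and were not taken to pair the samples, since not every same-letter pair had a correlation of deviations over 0.1. The correlations had a median r of 0.022, 0.162 and 0.082 for lungs against day 0, culture against day 0 and lungs against culture, over 49, 47 and 44 pairs. Pool 9, which has 2 culture libraries per letter, entered only the first of these. In pool 18 all 3 pairs of lungs and day 0 were over 0.1, and both Bzw2 hairpins stayed uncalled there with the block. With the letter as a replicate block, the 7 hairpins gave 0, 3 and 1 calls in these comparisons, and all hairpins gave 233, 573 and 195. The call lost between lungs and culture was that of TRCN0000183617 (-4.05, limma adjusted p = 0.138).

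The reversed values were small or uncalled. With pool totals TRCN0000096854 had -0.12 and TRCN0000430118 -0.11 in lungs against day 0, TRCN0000096855 -0.03 and TRCN0000430118 -0.03 in culture against day 0, and TRCN0000096855 0.29, TRCN0000430118 -0.07 and TRCN0000437591 -0.08 in lungs against culture. TRCN0000096854 in lungs against day 0 ranged from -0.10 to 0.41 over left-out replicates, with -0.10 without lung replicate B and -0.01 without day 0 replicate A. TRCN0000096855 in culture against day 0 had -0.14 when scaled on control hairpins and -0.10 in the deposited scaling. In lungs against culture it had 0.23 with DESeq2 size factors, 0.84 when scaled on control hairpins, 0.61 in the deposited scaling, 0.03 with edgeR, 0.29 with DESeq2 and 0.17 with all 3 groups in 1 fit, and -0.26 to 0.35 over left-out replicates. In the same comparison TRCN0000179179 had 0.81 with the cultures from the lane of day 0 and -5.14 to 1.62 over left-out replicates, TRCN0000430118 -0.03 to 0.19 and TRCN0000437591 -0.23 to 0.25. The cause was not tested.

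Of the calls for lungs against day 0, culture against day 0 and lungs against culture, 43.5%, 47.5% and 46.6% were higher, but 24.4%, 26.5% and 44.6% by pool totals, 45.8%, 16.1% and 82.4% when scaled on control hairpins and 30.5%, 20.6% and 60.6% in the deposited scaling. The median of all hairpins became -0.73, -0.64 and -0.26 by pool totals, -0.57, -0.99 and 0.30 on control hairpins and -0.82, -0.89 and -0.13 in the deposited scaling. All 3 Eif5b hairpins stayed below day 0 under every setting run. Eif5b rests on 2 lung libraries of 1 pool, in which 0, 1 and 52 reads set the values of 9C.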
